A study of Mus musculus with 4 samples.

Results

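Smooth muscle cells, pericytes, myoepithelial cells and activated fibroblasts (myofibroblasts) share a contractile program. Its filaments are built from smooth muscle actins and from proteins that bind them, and they are pulled by smooth muscle myosin once myosin light chain kinase has phosphorylated it. Many of these genes are driven by the serum response factor SRF with its partners myocardin and the myocardin-related factors, through a DNA element called the CArG box, and in fibroblasts the program is known to be switched on by TGF-beta, by stiff substrates and by culture on plastic. The genes described here are 10 members of this program: the actins *Acta2* and *Actg2*, the actin-binding proteins *Tagln*, *Cnn1*, *Lmod1* and *Synpo2*, the myosin heavy chain *Myh11* and its kinase *Mylk*, the intermediate filament *Des*, and *Rgs5*, a pericyte gene. They were taken by name, and all of their probe sets that carry a single gene symbol were used, 22 probe sets among 34958 such probe sets that cover 18194 genes. All 10 genes were measured by at least 1 probe set.

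The 4 Affymetrix mouse arrays each held RNA of mammary fibroblasts of another genotype, grown from FVB/N females at 16 weeks of age. Every genotype carried 1 conventional *Ets2* allele targeted in the DNA-binding domain (db) beside a conditional loxP allele, so the control cells had a single working *Ets2* copy. Normal fibroblasts with *Ets2* were Ets2db/loxP, and normal *Ets2* null fibroblasts were FspCre;Ets2db/loxP, where the promoter of Fibroblast Specific Protein 1 drives Cre. The tumor fibroblasts, ErbB2;Ets2db/loxP with *Ets2* and ErbB2;Fsp-cre;Ets2db/loxP without it, came from glands whose epithelium expressed the *ErbB2* oncogene. All cells had been separated by gravity, plated in serum and taken at the second passage, so the values are those of cells in culture. Each genotype is n = 1, and whether an array held cells of several mice is not stated.

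The values are log2 expression from RMA, a method that gives all arrays almost one distribution. Array medians were 5.51 to 5.54, Pearson's r between arrays over all probe sets was 0.988 to 0.993, and no value under log2 6 is taken here as expression above background. Of 12 fibroblast markers, 11 were at log2 6 or more in every array, among them the collagens *Col1a1* and *Col3a1*. Differences are log2 differences between 2 arrays. A gene's value is that of its brightest probe set, the one with the highest mean over the arrays, unless another is named. A difference was counted when it exceeded 1 on the log2 scale, which is 2-fold, or 2, which is 4-fold. Since no genotype has a replicate, no test was run, and every difference describes these arrays. Fewer cells that express a gene and less RNA per cell cannot be told apart. For scale, the robust SD of the log2 differences over all genes was 0.215 for *Ets2* in normal fibroblasts, 0.271 for *Ets2* in tumor fibroblasts, 0.213 for the oncogene with *Ets2* and 0.218 for the oncogene without it.

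Contractile genes were mostly highest in normal *Ets2* null fibroblasts and lowest in *ErbB2* tumor *Ets2* null fibroblasts. The normal *Ets2* null array held the highest value of 6 genes, *Acta2*, *Actg2*, *Cnn1*, *Myh11*, *Mylk* and *Lmod1*, against 22.6% of all genes. The tumor *Ets2* null array held the lowest value of 7 genes, *Acta2*, *Actg2*, *Tagln*, *Mylk*, *Lmod1*, *Synpo2* and *Des*, against 23.7% of all genes. Some of these ranks rest on small gaps. *Acta2* was highest at 14.30 against 14.24 in both arrays with *Ets2*, and *Des* lowest at 7.26 against 7.31 in normal *Ets2* null fibroblasts. *Cnn1* and *Myh11* were lowest in tumor fibroblasts with *Ets2*. *Rgs5* was below log2 6 in both *Ets2* null arrays, which are not ranked here. *Tagln*, *Synpo2*, *Rgs5* and *Des*, 4 genes, had their highest value in tumor fibroblasts with *Ets2*, against 23.9% of all genes.

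**Figure D1:**
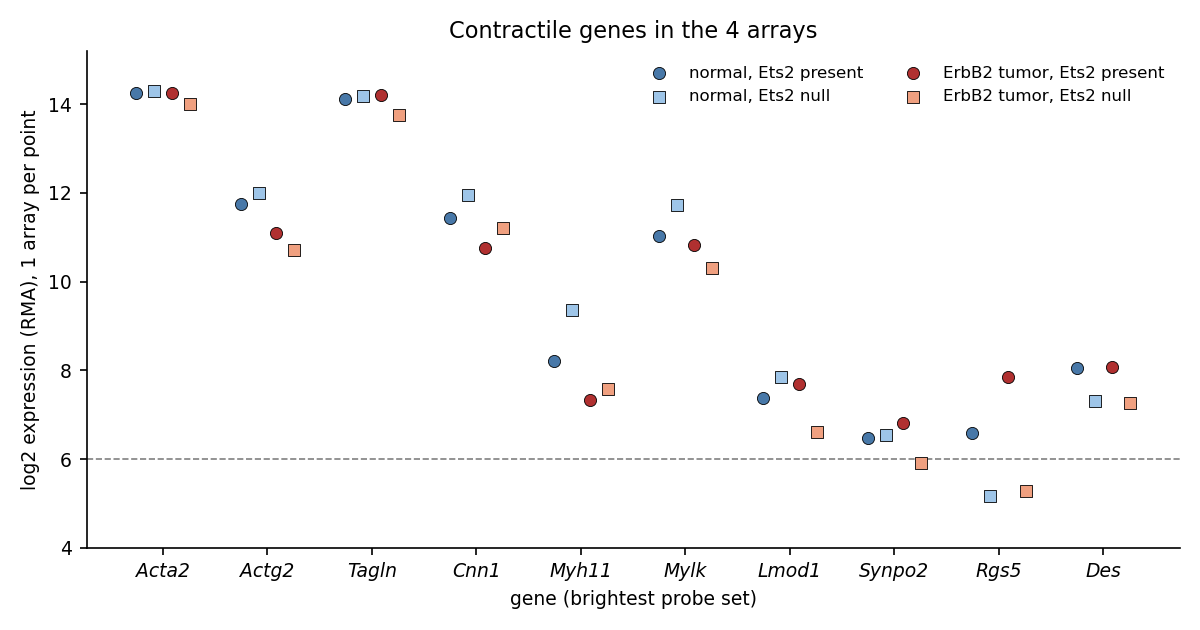
Log2 expression (y axis, RMA) of the brightest probe set of each contractile gene (x axis) in the 4 arrays, 1 point per array, with circles for *Ets2* present, squares for *Ets2* null, blue for normal and red for *ErbB2* tumor fibroblasts; the dashed line marks log2 6. The tumor *Ets2* null array is the lowest of the 4 for 7 genes, and *Acta2* and *Tagln* lie near the top of the scale on every array.

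*Acta2* encodes smooth muscle alpha-actin, the protein by which myofibroblasts are usually recognised. Its brightest probe set, 1416454_s_at, had log2 values of 14.24 in normal fibroblasts with *Ets2*, 14.30 in normal *Ets2* null, 14.24 in tumor fibroblasts with *Ets2* and 13.99 in tumor *Ets2* null fibroblasts. This is near the top of the scale: the highest value on any of the 4 arrays was 14.61, and only 13 to 37 of 45101 probe sets per array were brighter. The name ending in _s_at marks probes that may also bind related transcripts. A second probe set, 1444105_at, had log2 values of 8.21, 9.11, 8.89 and 6.70 in the same order, and the third, 1456658_at, had 6.92, 7.33, 8.11 and 6.26. Both dimmer probe sets were lowest in the tumor *Ets2* null array, as the bright one was, but by far larger steps. The sources used here do not say which part of the *Acta2* locus each dimmer probe set reads. Their steps may therefore not stand for all *Acta2* RNA. Without *Ets2* in tumor fibroblasts, 1444105_at was 4.56-fold lower and 1456658_at 3.60-fold lower, while the bright probe set differed by -0.25 on the log2 scale, within the robust SD of all genes. In normal fibroblasts the same probe sets differed by 0.90, 0.41 and 0.06. The study lists *Acta2*, by 1444105_at, among the genes that differed between these same tumor arrays, so this step is no independent evidence of a direction.

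Differences were small throughout the top of the scale. Over the 34 probe sets with a mean of log2 14 or more, the robust SD of the *Ets2* difference in tumor fibroblasts was 0.114, against 0.275 over all singly named probe sets, and the values ran from -0.45 to 0.18. *Tagln*, which encodes the actin-binding protein SM22-alpha, gave the lowest of these. Its single probe set had log2 values of 14.11, 14.18, 14.20 and 13.75 in the order used above, with the tumor *Ets2* null array alone below 14. *Acta2* gave the next lowest. Over the wider set of 234 probe sets with a mean of log2 13 or more, 10 were lower than *Tagln* and 19 lower than *Acta2* in this comparison. How far a bright probe set still follows the amount of RNA was not tested.

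**Figure D2:**
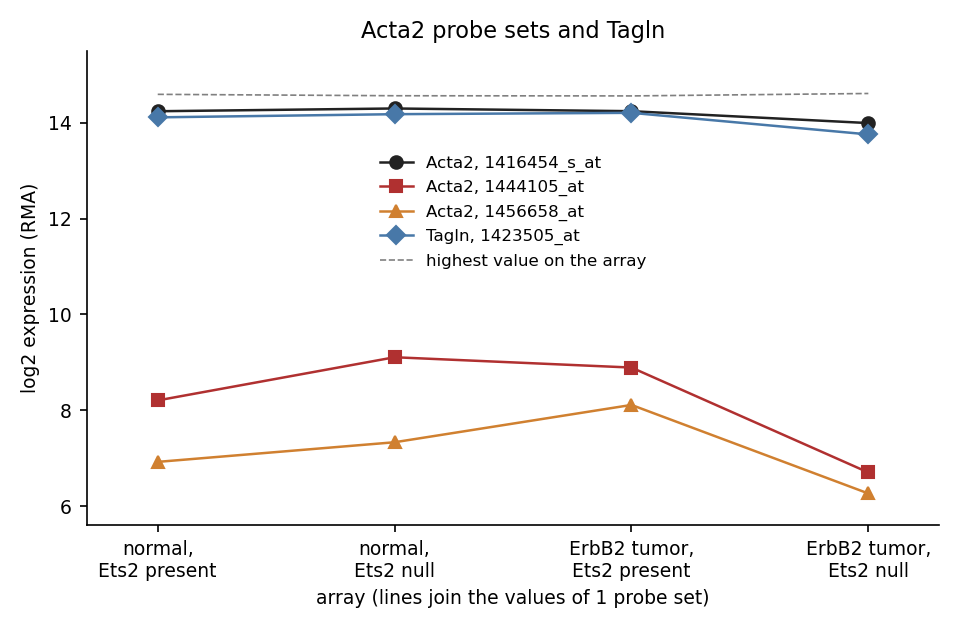
Log2 expression (y axis, RMA) of the 3 *Acta2* probe sets and of *Tagln* in the 4 arrays (x axis), with the highest value on each array as a dashed line. The bright *Acta2* probe set and *Tagln* stay between 13.75 and 14.30, while *Acta2* on 1444105_at runs from 9.11 in normal *Ets2* null to 6.70 in tumor *Ets2* null fibroblasts.

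The DNA before the start of *Acta2* is shown because it is a textbook target of SRF, and because *Acta2* and *Lmod1* were the genes of the list whose promoter held CArG-like boxes. A promoter from RefSeq (GRCm38.p6) was matched by symbol for 7 of the 10 genes, those other than *Actg2*, *Tagln* and *Myh11*. The 250 bases before each start were searched for the CArG box, a stretch of A and T between CC and GG, which reads as the same pattern on both strands. None of the 7 promoters held an exact box, and 1.47% of all 32851 promoters did. With up to 1 letter different, a looser search chosen after the data were seen, *Acta2* and *Lmod1* held 2 boxes each, and 18.6% of all promoters held at least 1. Letters in a window are not a binding site, and with 7 promoters nothing is read from the share. The boxes are in capitals below, 5′ to 3′ on the strand of the gene. In *Acta2* they begin 84 and 34 bases before the start, in chr19:34255374-34255473 on the minus strand, and in *Lmod1* 189 and 164 bases before it, in chr1:135324613-135324672 on the plus strand.
Acta2: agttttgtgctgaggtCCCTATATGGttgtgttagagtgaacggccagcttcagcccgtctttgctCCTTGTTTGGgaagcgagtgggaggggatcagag
Lmod1: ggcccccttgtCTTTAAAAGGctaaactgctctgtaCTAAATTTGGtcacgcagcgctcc

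*Actg2*, the gamma-actin of enteric smooth muscle, differed more by oncogene than by *Ets2*. Its log2 values were 11.74 in normal fibroblasts with *Ets2*, 12.00 in normal *Ets2* null, 11.09 in tumor fibroblasts with *Ets2* and 10.71 in tumor *Ets2* null fibroblasts. Both tumor arrays were below both normal arrays. The tumor value was 2.45-fold lower without *Ets2* and 1.57-fold lower with it.

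*Cnn1*, the calponin that restrains actomyosin in smooth muscle, also separated the arrays by oncogene. Its log2 values were 11.44, 11.96, 10.76 and 11.22 in the same order. It was higher without *Ets2* in both settings, by 0.52 in normal and 0.46 in tumor fibroblasts, the only gene of the 10 besides *Myh11* that was above 0 in both. *Lmod1*, a leiomodin that starts new actin filaments, had log2 values of 7.37, 7.85, 7.70 and 6.62 on its single probe set. It was 2.11-fold lower in the tumor *Ets2* null array than in its control, and 0.48 higher on the log2 scale in the normal *Ets2* null array. *Synpo2*, an actin-bundling protein of the Z-disc also called myopodin, had log2 values of 6.46, 6.53, 6.81 and 5.91. Its 3 brighter probe sets differed by -0.90, -0.90 and -0.85 in tumor fibroblasts, close to one another, and by 0.07, -0.07 and 0.30 in normal fibroblasts. The fourth, at 4.46 to 4.84, differed by -0.02 in tumor fibroblasts, and most *Synpo2* values lie near or below log2 6.

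*Myh11*, the myosin heavy chain that is the most restricted marker of differentiated smooth muscle, stood out in normal *Ets2* null fibroblasts. Its log2 values were 8.20, 9.36, 7.33 and 7.57 on the brighter probe set and 5.97, 7.22, 6.02 and 5.87 on the dimmer one. The normal *Ets2* null array was the highest on both, 2.24-fold above its control on the brighter probe set. In tumor fibroblasts the probe sets differed by 0.25 and -0.15, on either side of 0. Without *Ets2* the tumor array was 3.45-fold below the normal one, the largest oncogene difference of the 10 genes on their brightest probe sets.

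*Mylk*, myosin light chain kinase, was highest and lowest in the same arrays as *Actg2* on its brighter probe sets. The log2 values were 11.02, 11.73, 10.83 and 10.31 on 1425505_at and 10.63, 11.19, 10.34 and 9.66 on 1425506_at. The normal and the tumor *Ets2* null array, the highest and the lowest, were 2.68-fold and 2.88-fold apart. The third, 1425504_at, was dimmer, at 7.36, 7.77, 7.11 and 7.23, and differed by 0.12 for *Ets2* in tumor fibroblasts against -0.53 and -0.68 on the others.

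*Des* and *Rgs5* had another order, lower without *Ets2* in both settings. *Des*, the desmin filament of smooth, cardiac and skeletal muscle, had log2 values of 8.06, 7.31, 8.08 and 7.26 in the array order used above. The oncogene made little difference, at 0.02 and -0.05, while both *Ets2* null arrays were below both arrays with *Ets2*. Its other probe set, at 4.59 to 4.91, was below log2 6 on every array. *Rgs5*, a regulator of G-protein signaling that marks pericytes, had log2 values of 6.60, 5.16, 7.84 and 5.29. Tumor fibroblasts with *Ets2* held the highest value on all 4 *Rgs5* probe sets. The log2 differences without *Ets2* in tumor fibroblasts were -2.56 and -1.85 on the brighter probe sets and -0.64 and -1.23 on those below log2 6 in every array. *Rgs5* is also on the study's list from the same tumor arrays. Its *Ets2* null values are below log2 6, so the size of its difference is not exact, and the brightest probe set was lowest in the normal and the other 3 in the tumor *Ets2* null array.

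**Figure D3:**
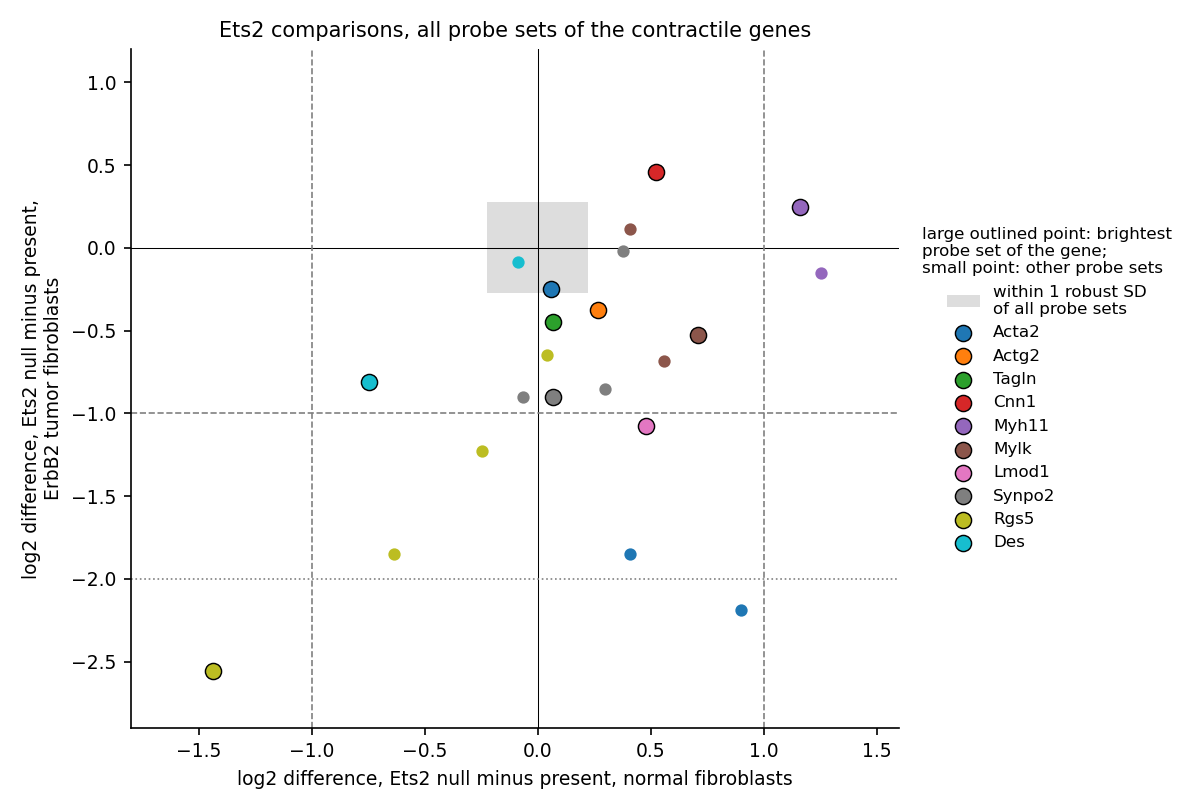
The 22 probe sets of the contractile genes by their log2 difference for loss of *Ets2* (null minus present) in normal cells (x axis) and in *ErbB2* tumor cells (y axis), with 1 array per genotype; large outlined points are the brightest probe set of each gene, the grey box spans 1 robust SD of all probe sets to each side of 0, dashed lines mark 2-fold and the dotted line 4-fold. *Acta2* on its dimmer probe sets lies at the lower right (0.90 and -2.19 on 1444105_at) and *Rgs5* at the lower left.

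Counted together, most contractile genes were lower without *Ets2* in tumor fibroblasts, while in normal fibroblasts most were higher and *Des* and *Rgs5* lower. In tumor fibroblasts 8 of the 10 genes were below 0 and 19 of the 22 probe sets, against 44.2% of all genes and 45.9% of all probe sets, and the median log2 difference was -0.49 against 0.04 over all genes. *Rgs5* and *Lmod1*, 2 of the 10, were lower by more than 2-fold, where 1.74% of all genes were, and 0 were higher by that size, where 0.341% were. On any probe set *Acta2* and *Rgs5* were more than 4-fold lower, where 0.407% of all genes were. In normal fibroblasts 8 of the 10 genes and 16 of the 22 probe sets were above 0, against 49.4% of all genes, with a median of 0.17 over the 10 against -0.00 over all genes. Of the 8, *Acta2*, *Tagln* and *Synpo2* were at 0.06, 0.07 and 0.07, well within the robust SD of 0.215. *Myh11* was more than 2-fold higher there, where 0.621% of all genes were. *Rgs5* was more than 2-fold lower, where 0.357% of all genes were, but only through a value below log2 6. With such values set to 6, a setting chosen after the data were seen, its difference was -0.60 in normal and -1.84 in tumor fibroblasts, under 2-fold in the former and under 4-fold in the latter.

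All 10 genes had a lower *Ets2* difference in tumor than in normal fibroblasts, as 44.4% of all genes did, and the median of tumor minus normal was -0.78 on the log2 scale against 0.04 over all genes. *Lmod1*, *Mylk* and *Rgs5* exceeded 2-fold in this difference between the comparisons, at -1.55, -1.24 and -1.12, where 3.28% of all genes did. *Cnn1* and *Des* were near equal in the comparisons, at -0.07 and -0.06. With no replicates, the difference between the comparisons was not tested.

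Between normal and tumor fibroblasts the contractile genes differed where *Ets2* was absent more than where it was present. These comparisons use the same 4 arrays as those for *Ets2*, so the values are given beside them and are not a second line of evidence. Without *Ets2*, 9 of the 10 genes were lower in tumor fibroblasts, against 45.1% of all genes, with a median of -0.68 against 0.03 over all genes. *Myh11*, *Mylk*, *Actg2* and *Lmod1*, at -1.79, -1.42, -1.29 and -1.23, were lower by more than 2-fold, where 1.51% of all genes were, and 0 were higher by that size, where 0.544% were. *Acta2* differed by -0.30, -2.40 and -1.07 on its 3 probe sets, and it was the only gene of the 10 past 4-fold on any probe set, where 0.28% of all genes were. With *Ets2* present the median was 0.01, against -0.02 over all genes. On the brightest probe sets *Rgs5* alone was more than 2-fold higher, by 1.25, where 0.83% of all genes were, and none was more than 2-fold lower, where 0.17% were. *Acta2* differed by 0.00, 0.69 and 1.19 on its probe sets, past 2-fold on 1456658_at. *Myh11*, *Cnn1* and *Actg2* were the lowest, at -0.87, -0.68 and -0.65.

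Other genes of the pathway were looked at through lists chosen with earlier results of these arrays known. Among 13 regulators that act with SRF and myocardin, *Srf* itself and *Csrp1*, a LIM-domain protein that works with it, were lower by more than 2-fold without *Ets2* in tumor fibroblasts, and 0 were higher by that size. *Srf* had log2 values of 8.41, 8.67, 9.02 and 7.74, highest in tumor fibroblasts with *Ets2* and lowest in tumor *Ets2* null fibroblasts. Its bearing on the contractile genes was not tested. *Csrp1* was at 12.59, 13.16, 12.97 and 11.96, and *Filip1l*, a filamin-interacting protein, at 8.67, 9.01, 9.37 and 8.54. *Mrtfa*, the SRF cofactor that actin monomers hold in the cytoplasm, differed by -0.64 in tumor and 0.33 in normal fibroblasts, and its relative *Mrtfb* by 0.07 and 0.21. *Myocd*, myocardin, was at 3.97 to 4.61, below log2 6 on every array. The list's median was -0.21 in tumor and 0.21 in normal fibroblasts.

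Of 40 other genes of actomyosin and the smooth muscle cytoskeleton, 37 were below 0 without *Ets2* in tumor fibroblasts, with a median of -0.54. The 3 past 2-fold were *Tln1*, the talin that links integrins to actin, *Itga8*, an integrin of smooth muscle and myofibroblasts, and *Pdlim5*, a Z-disc adaptor, at -1.07, -1.03 and -1.02. *Tpm1*, a tropomyosin, was at 13.96, 13.93, 14.12 and 13.14. In normal fibroblasts the median was 0.09 and none was more than 2-fold lower. The 2 past 2-fold upward, which are named because they were so few, were *Kcnmb1*, the smooth muscle subunit of a potassium channel, and *Ppp1r14a*, an inhibitor of myosin phosphatase. *Ppp1r14a* had log2 values of 8.05, 9.24, 7.36 and 6.76, the array order of *Actg2* and *Mylk*, and *Kcnmb1* was at 6.31 in normal *Ets2* null fibroblasts and below log2 6 in the other arrays. The *Ets2* null tumor array was 5.57-fold below the normal one for *Ppp1r14a*.

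Genes for matrix and TGF-beta signaling, which myofibroblasts also use, did not share one direction. Of 31 measured, 22 were below 0 without *Ets2* in tumor fibroblasts, with a median of -0.20. The ligands *Tgfb3* and *Tgfb2*, the matricellular protein *Ccn1* and the glycoprotein *Tnc* were more than 2-fold lower, and *Col8a1*, a short-chain collagen, was more than 2-fold higher. *Tgfb3* had log2 values of 10.90, 11.34, 11.96 and 9.84, *Tgfb2* of 8.57, 9.34, 9.32 and 7.87, *Ccn1* of 13.12, 13.11, 13.61 and 12.41 and *Col8a1* of 9.82, 9.14, 8.90 and 10.35. *Tgfb3* is also on the study's list. Between the *Ets2* null arrays, 5 of the 31 genes were more than 2-fold higher in tumor fibroblasts and 3 were lower by that size, *Tgfb3*, *Tgfb2* and *Col4a1*, at -1.50, -1.47 and -1.30. Among the 5, named like *Col4a1* after their values were seen, were *Fap*, a surface protease of activated fibroblasts, by 1.94, and *Col3a1*, a fibrillar collagen, by 1.24. Of 17 pericyte and mural genes, none was more than 2-fold lower or higher without *Ets2* in tumor fibroblasts. *Notch3*, *Mcam*, *Gucy1b1* and *Cspg4*, the largest differences among those that reached log2 6, were at -0.63, -0.62, -0.59 and -0.58. *Rgs5*, at -2.56, differed by more than any of them. In normal fibroblasts the 17 had a median of 0.07, with 6 below 0, where *Rgs5* was at -1.44.

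**Figure D4:**
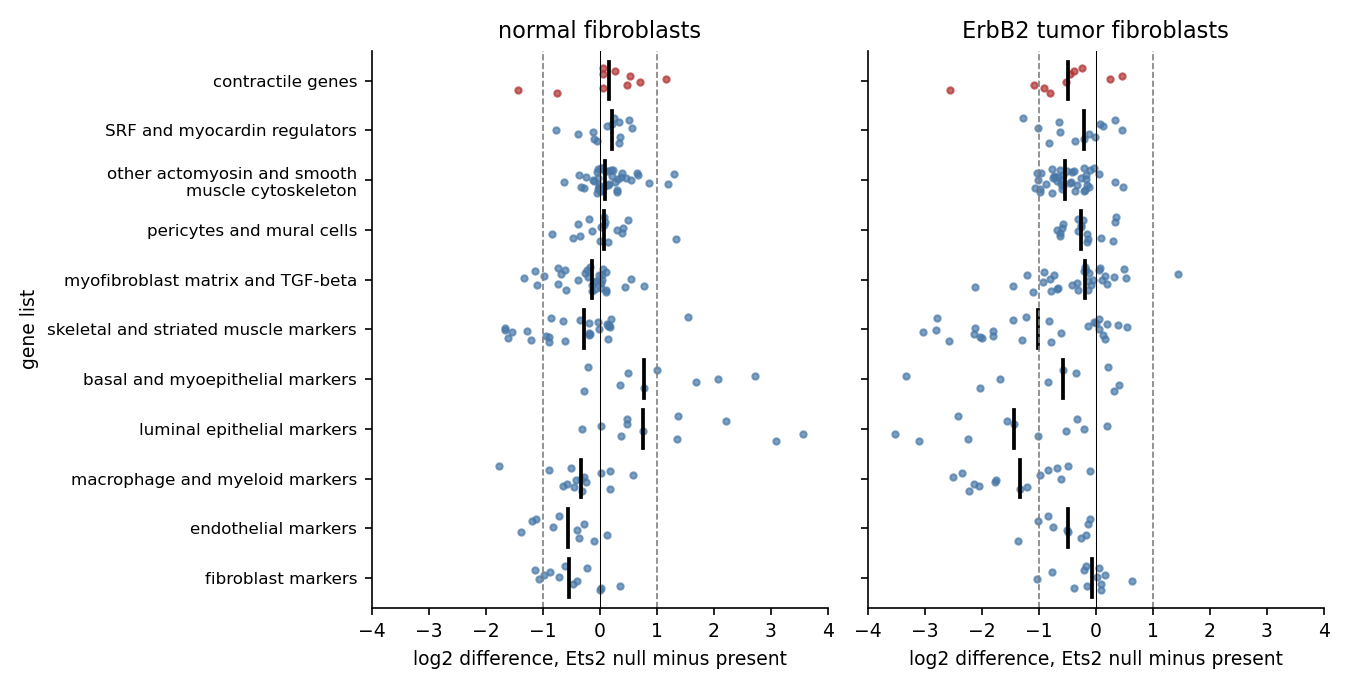
Genes of each list (y axis) as points by their log2 difference for loss of *Ets2* (null minus present, x axis, brightest probe set), in normal (left) and *ErbB2* tumor cells (right), with black bars at list medians and dashed lines at 2-fold; contractile genes are in red. The median of the contractile genes is 0.17 on the left and -0.49 on the right. Above 0 on the left and below it on the right are also the medians of the SRF, actomyosin, pericyte and both epithelial lists.

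Markers of other cells that express contractile genes moved between the same arrays, and their part in the results above was not tested. Myoepithelial cells make *Acta2*, *Actg2*, *Tagln*, *Cnn1*, *Myh11* and *Mylk*. Of 9 basal and myoepithelial markers measured, 4 were more than 2-fold higher in normal *Ets2* null fibroblasts and 3 more than 2-fold lower in tumor *Ets2* null fibroblasts. Their summed level, the sum of the values taken off the log scale, was 390 in normal fibroblasts with *Ets2*, 961 in normal *Ets2* null, 795 in tumor fibroblasts with *Ets2* and 373 in tumor *Ets2* null fibroblasts. The basal keratin *Krt14* was at 5.54, 8.27, 8.26 and 4.93 and *Krt5* at 6.59, 8.28, 7.21 and 6.38. The basal marker *Cdh3*, at log2 6 or more in every array, differed in the other direction. Its log2 differences without *Ets2* were -0.21 in normal and 0.22 in tumor fibroblasts, both within the robust SD of all genes. The basal markers *Trp63*, *Oxtr*, *Itgb4*, *Col17a1* and *Krt17* were below log2 6 in every array. Of these, *Krt17* is in both basal counts above and *Col17a1* in the count for normal fibroblasts. Of 11 luminal markers, 5 were more than 2-fold higher in the normal and 7 more than 2-fold lower in the tumor *Ets2* null array, with summed levels of 1200, 2840, 2430 and 880. The luminal markers *Cdh1*, *Cldn7* and *Elf5* were below log2 6 in every array. *Cdh1* is in both luminal counts and *Cldn7* in the count for tumor fibroblasts. The keratins *Krt8*, *Krt14* and *Krt18* and the luminal marker *Epcam* are on the study's list from the same normal arrays, all higher without *Ets2*. *Epcam* is listed there by another probe set than its brightest one here, which differed by -0.31 in normal fibroblasts. *Lmod1* and *Acta2* on 1444105_at had the same order of the arrays as both epithelial sums, and *Actg2*, *Cnn1*, *Myh11* and *Mylk* on their brightest probe sets did not, being lower in tumor fibroblasts with *Ets2* than in either normal array.

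Skeletal muscle cells make *Des* and *Synpo2*. Of 26 markers of skeletal and striated muscle, 6 were more than 2-fold lower without *Ets2* in normal and 13 in tumor fibroblasts, against 0.357% and 1.74% of all genes. Their summed level was 3440, 4980, 4430 and 1600 in the order used above, and 2140, 1200, 2890 and 936 without *Acta1*, the skeletal muscle alpha-actin, so that gene alone set the higher sum in normal *Ets2* null fibroblasts. *Mylpf* and *Myl1*, light chains of fast muscle myosin, were at 7.61, 6.07, 8.34 and 5.30 and at 7.88, 6.22, 8.23 and 5.43. As for *Des* and *Rgs5*, both *Ets2* null arrays were below both arrays with *Ets2*. In every array 12 of the 26 markers were below log2 6, among them the muscle regulators *Myod1*, *Myf5*, *Myf6* and *Pax7*. *Tnnt1*, another of the 12, is in both counts above. The regulator *Myog*, myogenin, was at 6.01, 5.85, 7.31 and 5.18, with both *Ets2* null arrays below both arrays with *Ets2*. In normal fibroblasts the *Myog* difference was only -0.17, within the robust SD of all genes. *Acta1*, which was singled out after its values were seen, behaved otherwise, at 10.34, 11.89, 10.59 and 9.37. It was 2.92-fold higher in normal and 2.33-fold lower in tumor fibroblasts without *Ets2*, and its arrays stood in the order of *Lmod1* and of *Acta2* on 1444105_at.

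Endothelial markers, which accompany pericytes in vessels, were lower without *Ets2* beside *Rgs5*. Of 10, 9 were below 0 in normal and 10 in tumor fibroblasts, against 50.5% and 44.2% of all genes. Their summed levels were 1710, 1190, 1320 and 1010, with *Tek*, *Tie1* and *Vwf* below log2 6 in every array. Between tumor and normal fibroblasts with *Ets2*, 8 of the 10 were lower in tumor, against 53.5% of all genes. Their median there was -0.17, within the robust SD of 0.213, and *Rgs5* was higher by 1.25. Macrophage markers were lower in tumor *Ets2* null fibroblasts, 9 of 15 by more than 2-fold, with summed levels of 10900, 8800, 20800 and 7960. The contractile genes themselves summed to 46200, 51300, 44900 and 36000, most of it from *Acta2* and *Tagln*. Fibroblast markers summed to 89700, 75600, 93000 and 87700 and had a median of -0.54 without *Ets2* in normal fibroblasts, with 9 of 12 below 0, and of -0.06 in tumor fibroblasts, where the medians of the contractile genes were 0.17 and -0.49.

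The genes outside the list whose profile over the 4 arrays lay nearest to the median profile of the 10 were named by a distance rule, over 10926 genes with log2 6 or more in at least 1 array. The median profile stood at 0.07, 0.29, 0.10 and -0.53 on the log2 scale around each gene's mean, in the array order used above. The nearest 5 were *Tns3*, a tensin of focal adhesions, *Gclm*, a subunit of the enzyme that makes glutathione, *Xaf1*, a partner of the apoptosis inhibitor XIAP, *Prkar1b*, a regulatory subunit of protein kinase A, and *Crip2*, a LIM-domain protein, at Euclidean distances of 0.06 to 0.09. *Tns3* had log2 values of 11.29, 11.53, 11.33 and 10.76, and *Crip2* of 10.69, 10.96, 10.74 and 10.04. Among the 10 themselves, *Tagln* lay nearest to the median profile, at a distance of 0.29, and *Rgs5* farthest, at 2.10, followed by *Myh11* at 1.30. The likeness rests on 4 arrays and is a description.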

How the data were processed

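The authors deposited log2 expression values made with RMA (background correction, quantile normalization and summary of each probe set), as the methods and the processing notes state. The sources used here do not name the software or the probe definitions. RMA would hide a change shared by most genes. Names of probe sets came from the platform annotation, updated through gene IDs for older symbols. Of all probe sets, 34958 had 1 symbol, 932 had several and 9211 were unnamed here. Python 3.11.15 was used for the differences, with pandas 2.3.3, numpy 2.4.6 and statsmodels 0.14.6 (loess span 0.4), and for the figures with matplotlib 3.10.9, and the steps were tested on simulated data. Precision is limited by the number of arrays, 1 per genotype, and no test was run. The members and lists were chosen with earlier results of these data known. From each of 10 further lists the 4 genes at log2 6 or more with the largest difference in the tumor *Ets2* comparison were eligible for naming, with *Srf*, *Myocd*, *Mrtfa* and *Mrtfb*, and other names were chosen after their values were seen. Alternatives covered the threshold, the probe set per gene, the scaling, and values below log2 6 left out (both arrays below it) or set to 6.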

Additional observations from a re-analysis of the deposited data

Results flagged for a closer look

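Of the 22 probe sets of the contractile genes, 7 differed in opposite directions without *Ets2* in normal and in tumor fibroblasts, with each difference beyond the robust SD of all probe sets, 0.223 and 0.275. All 7 were higher without *Ets2* in normal cells and lower without it in tumor cells. Of all 34958 singly named probe sets, 6.47% had opposite differences of that size, 1433 of the 2262 in this direction. The difference between the comparisons was not tested, since each genotype has 1 array. For *Acta2* the log2 difference in tumor minus that in normal fibroblasts was -3.09 on 1444105_at and -2.26 on 1456658_at. *Mylk* gave -1.24 on both of its bright probe sets, 1425505_at and 1425506_at, and *Lmod1* gave -1.55. *Actg2* gave -0.64, and *Synpo2* gave -1.15 on 1450828_at. The log2 values of 1450828_at were 5.65, 5.95, 6.07 and 5.22 in the array order used above, mostly below log2 6. Brighter *Synpo2* probe sets differed by 0.07 and -0.07 in normal fibroblasts.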

How the results depend on the processing

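No paired analysis was possible because each genotype has 1 array and no result comes from a test. Median centring, quantile normalization and loess moved no gene's difference by as much as the robust SD of its comparison. The deposited values had already been quantile normalized by RMA. Of 319 differences of single genes recomputed under these and the other settings, 292 moved by less than that, 27 by more, and none past 2-fold changed sign. Many of the 319 could not move. Genes with a single probe set keep their value when only the choice of probe set changes, and leaving out low values alters no remaining difference. The mean of probe sets moved 13 of 40 differences and the largest difference moved 8 of 40. The choice of probe set mattered most for *Acta2*: without probe sets ending in _x_at or _s_at its *Ets2* difference was 0.90 in normal and -2.19 in tumor fibroblasts, while the mean over its probe sets gave 0.46 and -1.43. The mean over probe sets for *Rgs5* was -0.57 and -1.57. With the probe set of the largest difference, the median of the 10 genes was 0.43 for *Ets2* in normal fibroblasts. For the oncogene without *Ets2* it was -0.95 with the mean of probe sets and -0.99 with the largest difference, without _x_at and _s_at probe sets, and, chosen after seeing the data, without *Acta2* and *Tagln*. At 4-fold, 0 genes were lower and 0 higher for *Ets2* in normal fibroblasts, 1 was lower for *Ets2* in tumor fibroblasts, 0 were higher for the oncogene with *Ets2* and 0 lower without it. With the mean of probe sets 0 were more than 2-fold lower for *Ets2* in normal fibroblasts and 0 higher for the oncogene with *Ets2*, and with the largest difference 2 were higher in the latter. With values below log2 6 set to 6, chosen after seeing the data, *Rgs5* was at -0.60 and -1.84 for *Ets2* in normal and tumor fibroblasts, and 0 of the 10 passed 2-fold downward in the former. Values below log2 6 and near the top of the scale are the least exact.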
